A study of Mus musculus with 21 samples.

Results

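The genes described here encode the subunits of the mouse proteasome and the proteins that assemble, activate or inhibit it. They were chosen by name: every protein-coding gene whose symbol starts with Psma, Psmb, Psmc, Psmd, Psme, Psmf or Psmg and which stands in both count tables, with 4 pseudogenes left out. The rule gave 50 of the 51559 genes in the tables, and 46 of them were expressed highly enough to be tested, among 14518 tested genes in all. *Psmc3ip* carries the prefix but encodes a meiotic recombination factor, so it was kept out of every count and median below, which leaves 45 tested genes; levels summed over all 50 genes include it. The other 49 genes were sorted into 7 groups by their place in the complex.

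The cells were V6.5 mouse embryonic stem cells (ESCs) grown in serum-containing medium with the inhibitors and cytokine that hold them in the naive state (2i and LIF). There were 3 wild-type cultures and 4 *Ddx6* KO cultures, 2 from each of 2 clones made with CRISPR. DDX6 is an RNA helicase that links the removal of the mRNA cap to translational repression. By the study's methods 1 clone carries a small insertion and the other a large deletion in *Ddx6*, both ending in an early stop, but the labels do not say which is which, and each clone is a single line. Every culture, wild type included, was given 500 µM of the uridine analogue 4sU for 30 min, and its RNA was then analysed as captured 4sU-labelled (nascent) RNA and as total RNA, giving 14 libraries. The ratio of total to 4sU RNA is the study's measure of mRNA stability.

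The 26S proteasome is the protease that destroys proteins tagged with ubiquitin. Its 20S core is a barrel of alpha and beta rings, in which the beta subunits PSMB5, PSMB6 and PSMB7 cut the substrate. The 19S particle caps the barrel: its base unfolds substrates with the PSMC ATPases, and its lid removes the ubiquitin chain. In cells exposed to interferon the catalytic subunits can be replaced by PSMB8, PSMB9 and PSMB10, which form the immunoproteasome, and the PA28 activator made of PSME1 and PSME2 is induced with them. Pluripotent stem cells are known for high proteasome activity.

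*Ddx6* itself was checked in every library. In total RNA it stood at 333.7, 383.9 and 391.6 CPM (counts scaled to library size, normalised across libraries by the TMM method) in wild type, at 57.3 and 67.8 in clone 1 and at 23.1 and 21.5 in clone 2. In 4sU RNA the wild-type values were 242.0 to 270.1 CPM and the KO values 144.9 to 230.5 CPM. Total counts per library lay between 2441639 and 3570192 in 4sU libraries and between 5724179 and 7369651 in total RNA libraries. The 6 stem cell markers were all expressed, and 4 of them rose in total RNA, where 19.5% of all tested genes rose. *Nanog* rose by 0.59 ± 0.06 on the log2 scale. It lies on chromosome 6, whose 735 tested genes had a median log2 fold change of 0.43 in total RNA against -0.12 elsewhere. The summed level of 4 primed or mesoderm markers was 12.3 to 17.2 CPM in wild-type and 3.15 to 4.46 CPM in KO total RNA; 2 of them were tested, of which *Otx2* fell (-2.53 ± 0.22) and *Mixl1* was at 0.25 ± 0.46. The summed feeder cell markers reached at most 12.6 CPM in total RNA, in the KO, where 2 of the 5 were tested and both were higher, against at most 5.74 CPM in wild type; the part of these markers in the results was not tested. The TMM factors were 0.925 to 0.942 in wild type and 1.03 to 1.07 in KO libraries, and mitochondrial genes took 10.8 to 14.2% of the wild-type and 7.07 to 8.99% of the KO 4sU counts. With library size alone in place of TMM, the median log2 fold change (KO over wild type) of all tested genes moved from 0.00 to 0.21 in 4sU RNA and from -0.10 to 0.06 in total RNA, so the proteasome genes are also given relative to that median.

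Proteasome mRNAs were abundant in wild-type cells, with a high ratio of total to nascent RNA. The 31 subunits of the constitutive 26S particle that carry the prefix had a median of 161.0 CPM per kilobase of exon in total RNA, against 8.16 for all tested genes. *Psmb6*, which encodes the caspase-like subunit, was highest at 406.6 ± 3.3 (SD, n = 3), and the median was 146.8 in the alpha ring, 214.8 in the beta ring, 174.8 in the base and 133.8 in the lid. The assembly chaperones were rarer, with a median of 34.4 CPM per kilobase.

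Only reads that map to a single place were counted, and 16 of the 31 constitutive subunits share at least one 50-base stretch with another annotated transcript. The 3 subunits with over 50% of their stretches shared (*Psmb5*, *Psmb3* and *Psma5*) had a median of 34.7 CPM per kilobase, against 146.8 for the 13 that share up to 50% and 167.4 for the 15 that share none. The groups ran into each other: those 13 held both the highest and the lowest subunit, at 406.6 and 13.5 CPM per kilobase, and over the 31 the share of such stretches and the level had a Spearman rho of -0.366. *Psmb5*, the chymotrypsin-like subunit, shares 57.1% of its stretches, and it stood at 34.7 ± 5.2 CPM per kilobase although it sits in the same ring as *Psmb6*. Reads from shared stretches could not be counted for such a gene in either genotype.

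On the log2 scale, total over 4sU RNA had a median of 1.31 over the 45 genes in wild type, against 0.08 for all tested genes, a difference of 1.23. In all, 42 of the 45 lay above the median of all tested genes. The median member stood at percentile 86.3 of all tested genes by this ratio. *Psme4*, which encodes the PA200 activator, had the highest value at 2.66 ± 0.18 (SD, n = 3; percentile 99.8), with *Psmd13* at 2.29 ± 0.05 and *Psmb1* at 2.27 ± 0.002 next. *Psma3*, an alpha ring gene that shares 22.02% of its stretches with other transcripts, had the lowest value at -0.91 ± 0.17. Every tested gene of the beta ring, the base and the lid lay above the median of all tested genes, as did both tested genes of the inducible and tissue-specific group.

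The order of the genes was much the same in *Ddx6* KO cells, where the median ratio was 1.19 against 0.03 for all tested genes and the median member stood at percentile 88. Across the 45 genes the wild-type and KO ratios had a Spearman rho of 0.93, which is a description, since the 4sU and total libraries of a culture share an RNA extract. Against protein-coding genes alone the members still lay 0.99 higher in wild type and 0.95 higher in the KO.

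**Figure D1:**
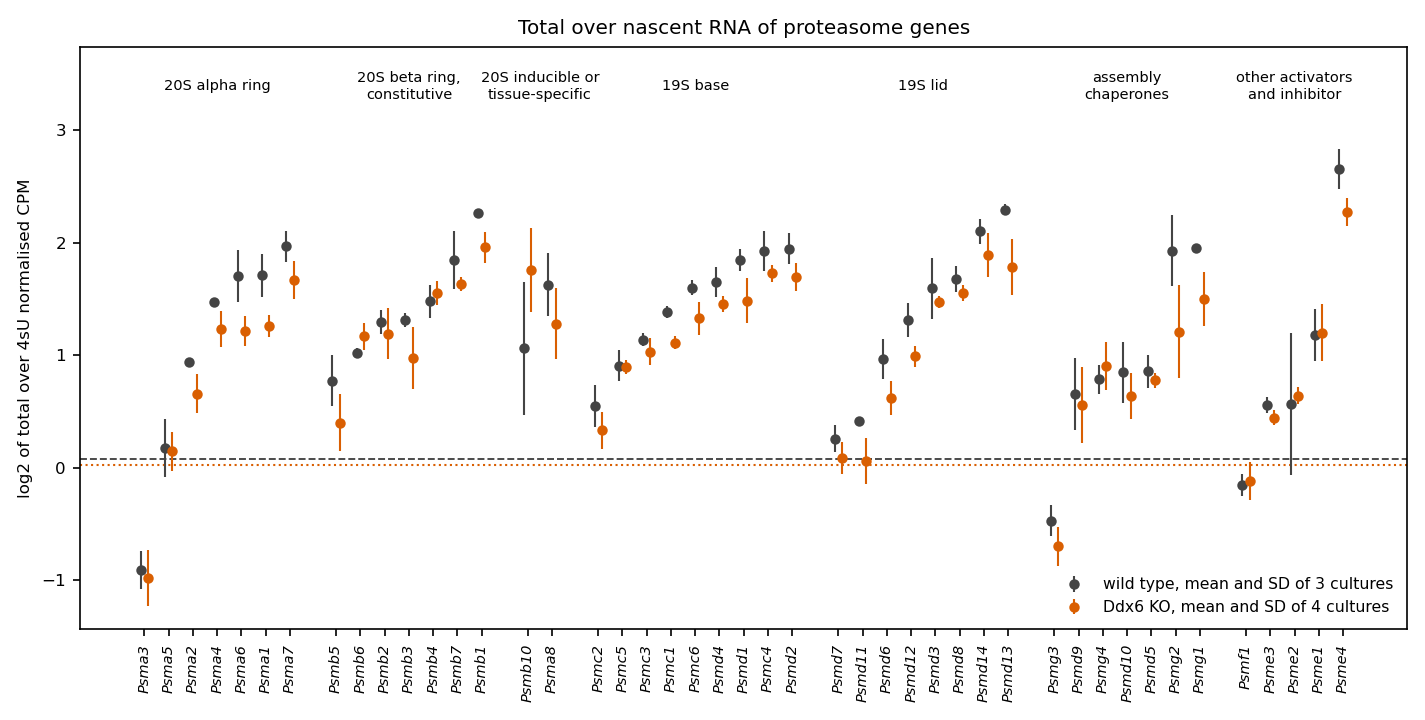
Log2 ratio of total to 4sU normalised CPM for the 45 tested proteasome genes by subcomplex, as mean and SD of the 3 wild-type (grey) and 4 Ddx6 KO (orange) cultures. The dashed and dotted lines are the medians of all tested genes in wild type (0.08) and KO (0.03), and 42 of the 45 wild-type means lie above the dashed line.

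In total RNA most proteasome genes were lower in *Ddx6* KO cells, by a small amount, while *Psmb10*, *Psme1* and *Psme2*, which interferon can induce, were higher. By edgeR's quasi-likelihood test with Benjamini-Hochberg adjustment over all tested genes, at an adjusted p under 0.05, 35 of the 45 genes fell (77.8%) and 3 rose (6.67%). Among all tested genes 31.0% were lower and 19.5% were higher by the same test. The median log2 fold change was -0.28 for the 45 genes, a decrease of 17.4%, and -0.10 for all tested genes. No member passed the study's further requirement of an absolute log2 fold change above 1, which 10.1% of all tested genes passed. DESeq2 and limma-voom also gave 0. By edgeR 38 members had an unadjusted p under 0.05, as did 8042 of the 14518 tested genes.

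The groups did not overlap, with all 4 KO cultures below all 3 wild-type cultures, for 31 of the 45 genes, against 32.0% of all tested genes. They did not overlap in the other direction for 4 genes, against 20.4% of all tested genes. Summed over all 50 genes, the libraries held 8665 to 8897 CPM in wild type and 7018 to 7277 CPM in the KO in total RNA. As a plain share of counts, with no TMM factor, this was 0.816 to 0.828% against 0.733 to 0.752%. In bulk RNA such as this, fewer cells of a type and less RNA per cell cannot be told apart.

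The decrease was found in both rings of the core, the base and the lid. Of the 31 constitutive subunits with the prefix 29 fell and none rose, with a median log2 fold change of -0.28 and a lowest value of -0.44. The alpha ring had 6 of 7 genes lower, the beta ring 7 of 7, the base 9 of 9 and the lid 7 of 8. The medians of these groups were close together, at -0.23, -0.34, -0.26 and -0.24. The exceptions were *Psma5*, at -0.02 ± 0.10 (SE), over 50% of which is shared with other transcripts, and *Psmd14*, the deubiquitinase of the lid, at 0.04 ± 0.06. Among subunits without the prefix, *Adrm1*, a ubiquitin receptor of the 19S particle, was at -0.23 ± 0.12 (adjusted p = 0.0942), and *Sem1*, a small lid subunit, rose by 0.36 ± 0.07. The median of the 31 subunits minus that of all tested genes was 3.28, 3.33 and 3.35 on the log2 scale in the wild-type cultures and 3.04 to 3.08 in the KO cultures.

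How far each gene counts as lower depended on the scaling. A scaling shifts all genes of a library alike, so it cannot move a gene's place among the others. With library size alone 17 members fell and 6 rose, against 19.4% and 29.5% of all tested genes. Relative to the median of all tested genes the members lay 0.18 lower with TMM and, for that reason, also with library size alone. They lay between 0.16 and 0.21 lower over the 20 fits made, which also changed tests, filters, runs and cultures. In these fits 35 to 37 of the 45 genes (44 where *Psme2* failed the strictest filter) lay below the median of all tested genes. Of the 35 genes that fell, 17 passed the threshold in every alternative, and so did the 3 that rose, *Psme2* in the 18 alternatives that tested it.

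**Figure D2:**
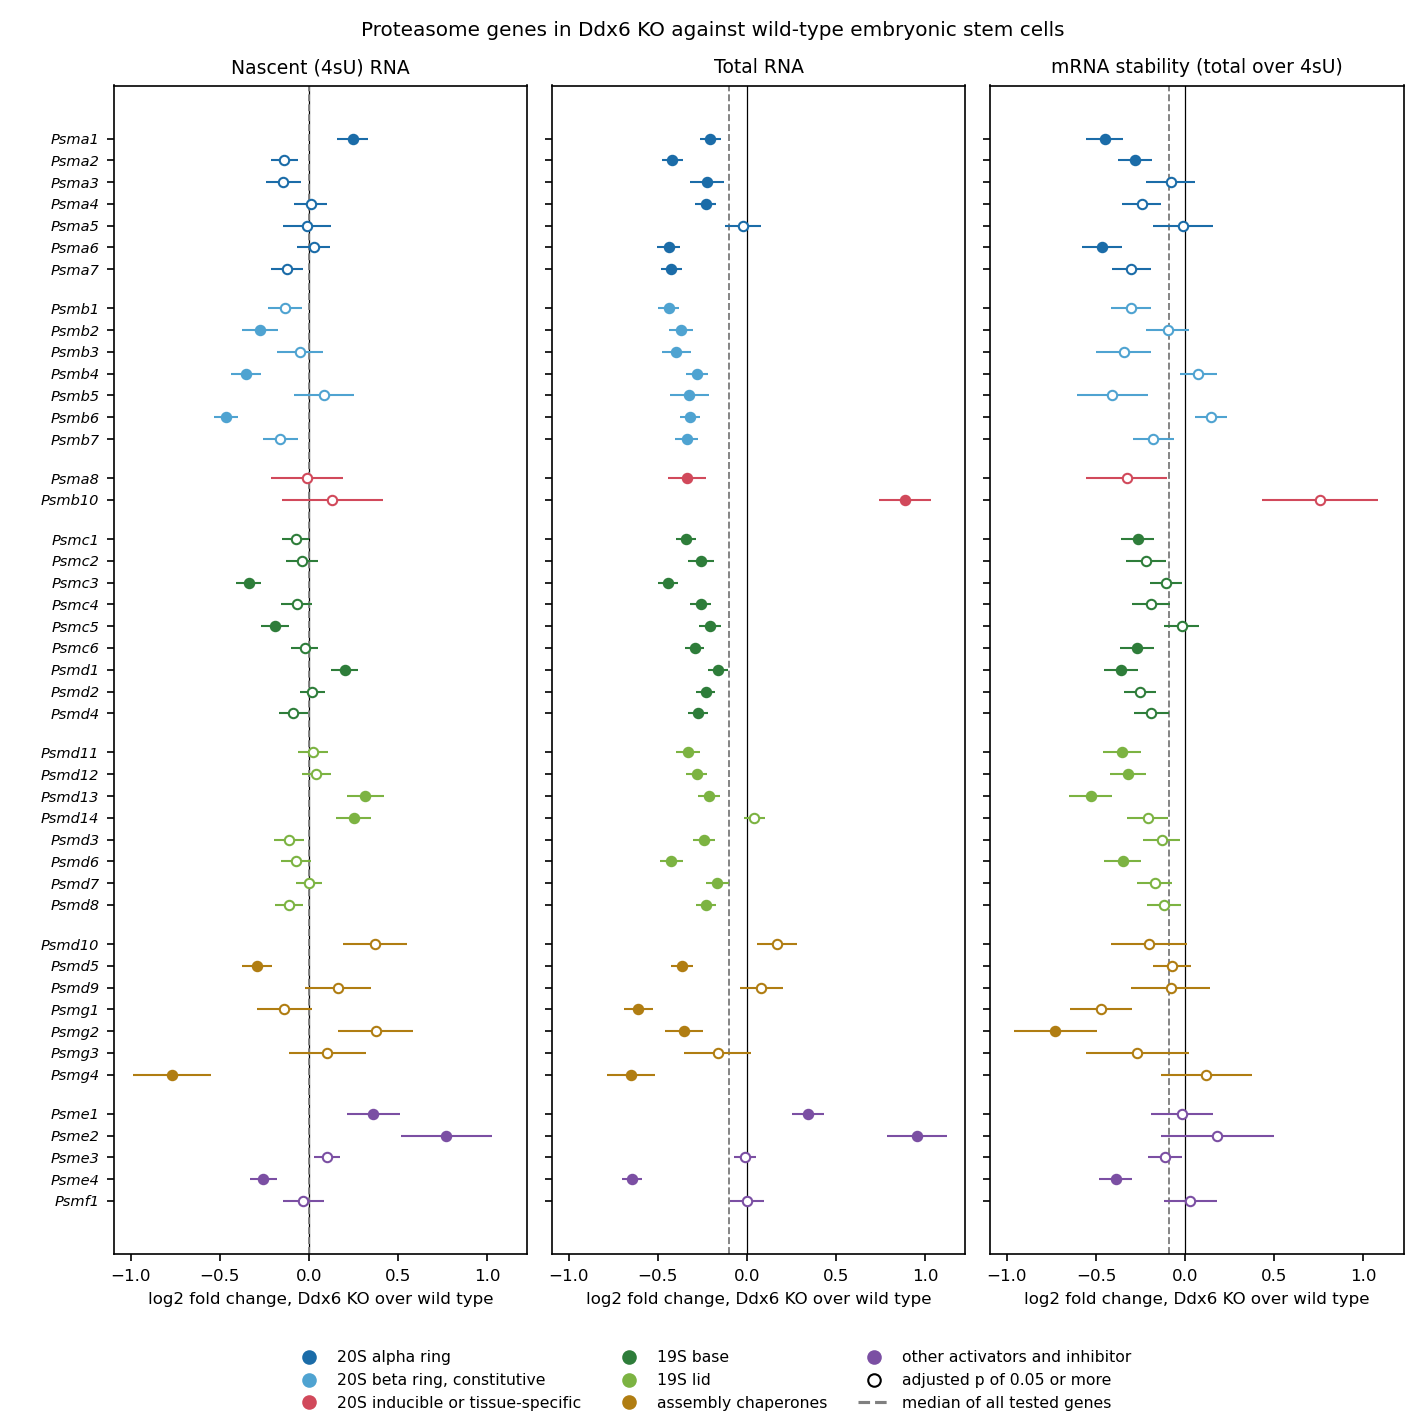
Changes of each tested proteasome gene between Ddx6 KO and wild-type cells (log2, with standard errors) in 4sU RNA, total RNA and the ratio of total to 4sU RNA, coloured by subcomplex; filled points have an adjusted p under 0.05 and the dashed line is the median of all tested genes. In total RNA, 35 genes lie to the left as filled points, and Psmb10, Psme1 and Psme2 lie to the right.

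The catalytic subunits show the pattern in single libraries. *Psmb6* stood at 321.4, 326.0 and 326.0 CPM in the total RNA of wild-type cultures, at 270.0 and 255.6 in clone 1 and at 258.3 and 257.0 in clone 2. The genotypes were far apart relative to their spread, at -0.32 ± 0.06 (SE) on the log2 scale with an adjusted p of 2.13e-06. *Psmb7*, the trypsin-like subunit, stood at 235.0, 266.5 and 246.0 CPM in wild type and at 200.04, 196.1, 197.8 and 194.3 CPM in the KO. Its groups did not overlap either, and its log2 fold change was -0.34 ± 0.06 (adjusted p = 8.4e-06). *Psmb5* had 26.7, 35.3 and 28.7 CPM in wild type and 22.6, 23.4, 26.3 and 24.3 CPM in the KO. Here the groups nearly touched: the log2 fold change of -0.32 ± 0.11 had an adjusted p of 0.0124, and without wild-type culture 2 it was -0.20 with an adjusted p of 0.199.

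The largest decreases among the rings and the 19S particle were of similar size. *Psma6* and *Psmb1*, structural genes of the alpha and beta rings, changed by -0.44 ± 0.06 each on the log2 scale, and *Psmc3*, an ATPase of the base, by -0.44 ± 0.06. *Psmd6*, a scaffold subunit of the lid, changed by -0.42 ± 0.06. All 4 passed the threshold in all 19 alternatives run on total RNA. Some of the smaller decreases were less firm. *Psmd1*, the largest base subunit, changed by -0.16 ± 0.06 (adjusted p = 0.0155) and held in 9 of 19 alternatives, with an adjusted p of 0.0508 without clone 1 culture 1 and 0.0505 without clone 2 culture 2. *Psmd7*, a lid subunit, changed by -0.17 ± 0.06 (adjusted p = 0.0276), with overlapping groups, and held in 7 of 19. *Psma3* changed by -0.22 ± 0.09 (adjusted p = 0.0429) and held in 5 of 19; its adjusted p was 0.106 to 0.22 when wild-type culture 2 or 3, clone 1 culture 1 or either culture of clone 2 was left out.

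*Psmb10* and both PA28 genes went the other way. *Psmb10*, the immunoproteasome counterpart of *Psmb7*, stood at 12.2, 12.1 and 16.6 CPM in the total RNA of wild-type cultures and at 19.8, 26.4, 31.5 and 23.2 CPM in the KO. Every KO culture was above every wild-type culture, with a log2 fold change of 0.89 ± 0.15 (adjusted p = 1.14e-06). *Psme2* rose from 8.16, 9.85 and 7.21 CPM to 17.7, 13.2, 17.1 and 17.2 CPM, a log2 fold change of 0.95 ± 0.17 (adjusted p = 3.27e-06). *Psme1* rose from 46.2, 54.97 and 43.5 CPM to 61.8, 59.0, 63.6 and 59.99 CPM, a log2 fold change of 0.34 ± 0.09 (adjusted p = 0.00111).

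*Psme1* and *Psme2*, the subunits of PA28, are neighbours in the genome (GRCm38, chr14:55578123-55581529 on the plus strand and chr14:55587441-55591113 on the minus strand), and *Psmb10* lies elsewhere (chr8:105935735-105938444, minus strand). *Psme2* shares 59.3% of its 50-base stretches with other transcripts, among them its retrocopy *Psme2b*, which was too low to test with 19 counts in all 14 libraries. *Psmb10* shares none.

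The other immunoproteasome genes stayed near the detection limit in both genotypes. *Psmb8* had 13 counts over all 14 libraries, and *Psmb9* had 52, all of them in total RNA. *Psmb9* gave 9, 13 and 7 counts in the wild-type total libraries and 5, 9, 6 and 3 in the KO total libraries, the opposite direction to *Psmb10*, and it was not tested. In 4sU RNA it had 0 counts in every library, which allows up to 0.84 to 1.23 CPM per library, counting error only. *Psmb11*, the thymus-specific subunit, had 1 count. *Psma8*, the testis-type alpha subunit, was detected at 42.3, 37.6 and 43.7 CPM in wild-type total RNA and at 33.8, 25.4, 39.8 and 31.4 CPM in the KO; it changed by -0.34 ± 0.11 on the log2 scale (adjusted p = 0.00653), with 1 KO culture inside the wild-type range.

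Genes of the interferon response were listed beside these. Of the 7 on the list 4 could be tested, and 3 of those rose in total RNA, where 19.5% of all tested genes rose. *B2m*, the light chain of MHC class I, changed by 1.00 ± 0.12 and *Irf1* by 0.44 ± 0.09 on the log2 scale. *Tap1*, which is transcribed next to *Psmb9*, was at -0.67 ± 0.32 (adjusted p = 0.076). *Isg15* and *Ifit1* had no counts in the total RNA of wild-type cells and 0.0328 and 0.0656 CPM on average in that of the KO. The summed level of the list was 50.7 to 54.3 CPM in wild-type and 76.0 to 83.1 CPM in KO total RNA; whether it bears on *Psmb10*, *Psme1* and *Psme2* was not tested.

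**Figure D3:**
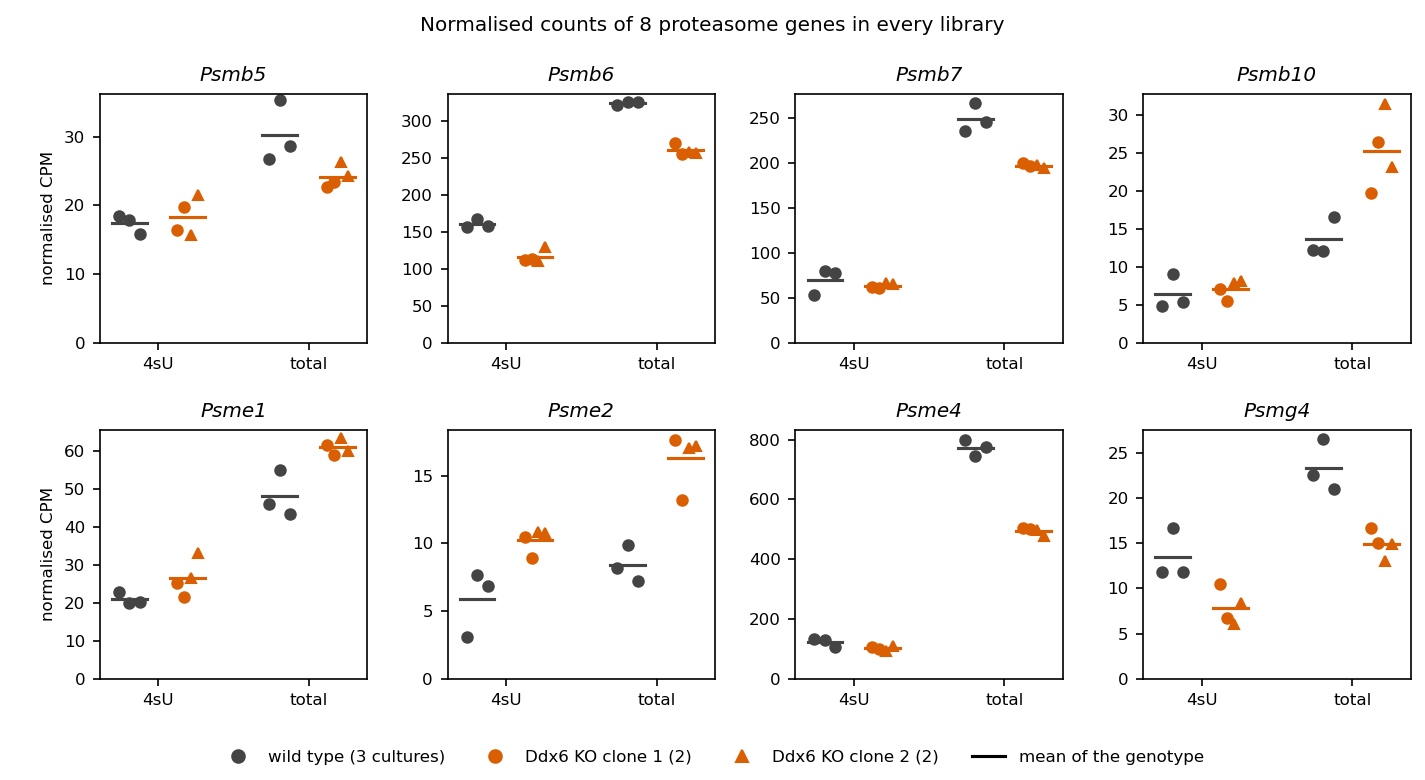
Normalised CPM of 8 proteasome genes in every 4sU and total library; each point is a culture, circles and triangles in orange are the 2 Ddx6 KO clones, and bars are genotype means. In total RNA the KO points of Psmb5, Psmb6, Psmb7, Psme4 and Psmg4 lie below all wild-type points, and those of Psmb10, Psme1 and Psme2 lie above them.

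The assembly chaperones, which guide the rings and the base together and are not part of the finished particle, varied more than the subunits. In total RNA 4 of 7 fell and none rose, with log2 fold changes from -0.65 to 0.17. *Psmg4*, an alpha ring chaperone, stood at 22.6, 26.6 and 21.01 CPM in wild type and at 16.7, 15.1, 13.002 and 14.9 CPM in the KO, that is -0.65 ± 0.14 (adjusted p = 5.5e-05). *Psmg1*, whose product binds that of *Psmg2*, stood at 80.7, 76.6 and 87.4 CPM in wild type and at 54.5, 56.3, 49.6 and 53.5 CPM in the KO, that is -0.61 ± 0.08 (adjusted p = 4.1e-09). In both genes every KO culture was below every wild-type culture, and both held in all 19 alternatives. *Psmg2* changed by -0.35 ± 0.11 and *Psmd5*, a base chaperone, by -0.36 ± 0.06. *Psmd9*, *Psmd10* and *Psmg3* were at 0.08, 0.17 and -0.17 and did not pass; 26.8% of the exons of *Psmg3* overlap another gene on the same strand.

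The alternative activators of the core did not move together. *Psme4* (PA200) fell in total RNA from 798.4, 745.7 and 776.3 CPM to 503.9, 500.0, 496.7 and 476.1 CPM. This is -0.65 ± 0.05 on the log2 scale, a decrease of 36.1%, and its adjusted p of 1.69e-15 was the smallest among the members. *Psme3*, the nuclear PA28 gamma, was at -0.01 ± 0.06, and *Psmf1*, an inhibitor of the core, at 0.00 ± 0.09.

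Nascent RNA did not show the broad decrease. In 4sU RNA 6 of the 45 genes rose (13.3%) and 8 fell (17.8%), against 20.6% and 21.0% of all tested genes, and the median log2 fold change was -0.03 against 0.00. No member passed the further requirement on fold change, which 10.9% of all tested genes passed. DESeq2 and limma-voom also gave 0. By edgeR 15 members had an unadjusted p under 0.05, as did 7041 of the 14518 tested genes. The summed level of the 50 genes was 3309 to 3411 CPM in wild type and 3111 to 3249 CPM in the KO with TMM, while the plain share of counts went the other way, from 0.308 to 0.317% in wild type to 0.334 to 0.349% in the KO.

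In nascent RNA the beta ring had 3 genes lower and none higher, the alpha ring 1 higher and none lower, and the base had both. In the beta ring *Psmb6* fell from 155.7, 167.0 and 157.9 CPM to 111.5, 112.5, 110.6 and 128.9 CPM, which is -0.47 ± 0.07 on the log2 scale (adjusted p = 1.43e-07). *Psmb4* fell by 0.35 and *Psmb2* by 0.27 on the log2 scale, while *Psmb7* was at -0.16 ± 0.10 and *Psmb5* at 0.08 ± 0.17. In the alpha ring *Psma1* rose by 0.25 ± 0.09 (adjusted p = 0.0179), and without wild-type culture 2 it was 0.16 (adjusted p = 0.224). In the base *Psmc3* was lower at -0.34 ± 0.07 and *Psmc5* at -0.19 ± 0.08, whereas *Psmd1* was higher by 0.20 ± 0.08 (adjusted p = 0.0298); that call was lost without wild-type culture 1, clone 1 culture 1 or clone 2 culture 2, with adjusted p-values of 0.223, 0.174 and 0.0548.

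In the lid *Psmd13* and *Psmd14* rose by 0.32 ± 0.11 and 0.25 ± 0.10; the adjusted p of *Psmd13*, 0.0126, was 0.0531 without wild-type culture 3 and 0.0866 without clone 2 culture 2. *Psmg4* had the largest decrease at -0.77 ± 0.22 (adjusted p = 0.00327), from 11.9, 16.7 and 11.9 CPM to 10.4, 6.69, 6.01 and 8.39 CPM; it was -0.58 (adjusted p = 0.0693) without wild-type culture 2. *Psme2* had the largest increase at 0.77 ± 0.26 (adjusted p = 0.0126), from 3.08, 7.64 and 6.83 CPM to 10.4, 8.93, 10.8 and 10.8 CPM, and without wild-type culture 1 it was 0.50 (adjusted p = 0.146). *Psme1* was at 0.36 ± 0.15 (adjusted p = 0.0467) and *Psmb10* at 0.13 ± 0.28 (adjusted p = 0.744).

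For mRNA stability, tested as the change of total RNA beyond that of 4sU RNA, 12 of the 45 genes fell (26.7%) and none rose, against 8.58% and 3.79% of all tested genes. The median log2 change was -0.21 for the members and -0.09 for all tested genes. No member reached an absolute log2 change above 1, which with the adjusted p 1.08% of all tested genes did. DESeq2 and limma-voom gave 0 as well. By edgeR 20 members had an unadjusted p under 0.05, as did 3619 of the 14518 tested genes. The ratios of the groups did not overlap, KO lower, for 17 genes (15.4% of all tested genes) and, KO higher, for 0 (7.44%). The 12 genes were 3 of the alpha ring, 3 of the base, 4 of the lid, *Psmg2* and *Psme4*; no gene of the constitutive beta ring passed.

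This count was less stable than that in total RNA. It was 4 without wild-type culture 2, and 6 without wild-type culture 1 or clone 2 culture 1. It was 7 without wild-type culture 3 or clone 1 culture 2, and 5 with DESeq2. The share of all tested genes called lower also went down from 8.58%. It was 4.67% without wild-type culture 2, 5.55% without wild-type culture 1, 6.9% without wild-type culture 3 and 5.01% with DESeq2. Members lay 0.09 to 0.17 below the median of all tested genes in the 21 fits made. The 5 calls that held in at least 16 of 20 alternatives were *Psma1*, *Psma6*, *Psmd1*, *Psmd13* and *Psme4*.

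*Psmd13*, a lid subunit, had log2 ratios of 2.26, 2.26 and 2.35 in wild type and of 2.04, 1.75, 1.88 and 1.46 in the KO, a change of -0.53 ± 0.12 (adjusted p = 0.00183). *Psma1* had ratios of 1.61, 1.93 and 1.59 in wild type and of 1.40, 1.205, 1.216 and 1.202 in the KO, a change of -0.45 ± 0.10 (adjusted p = 0.00197); without wild-type culture 2 the adjusted p was 0.0678. In both genes every KO ratio was below every wild-type ratio, and in both the total RNA was lower and the nascent RNA higher. *Psma6* changed by -0.47 ± 0.11 (adjusted p = 0.00274, and 0.0551 without wild-type culture 1) and *Psme4* by -0.39 ± 0.09 (adjusted p = 0.00266). *Psmd1* changed by -0.36 ± 0.10 (adjusted p = 0.00703), with adjusted p-values of 0.0596 and 0.0673 without wild-type culture 1 and clone 1 culture 1.

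*Psmg2* had the largest decrease among the members at -0.73 ± 0.24 (adjusted p = 0.0306), from ratios of 2.28, 1.85 and 1.66 to 1.67, 1.36, 0.69 and 1.12. Its groups overlapped, and it passed in 9 of 20 alternatives; the adjusted p was 0.0647 to 0.181 without wild-type culture 1 or 2 or either culture of clone 2. *Psmd6* changed by -0.35 ± 0.11 (adjusted p = 0.0192) and also passed in 9 of 20, with adjusted p-values of 0.184, 0.0604 and 0.0825 without wild-type culture 2, wild-type culture 3 and clone 2 culture 2. In the beta ring *Psmb6* was at 0.15 ± 0.09 (adjusted p = 0.313), *Psmb7* at -0.18 ± 0.11 and *Psmb5* at -0.41 ± 0.20 (adjusted p = 0.195). *Psmb10* was at 0.75 ± 0.33 (adjusted p = 0.127), with ratios of 1.26, 0.40 and 1.53 in wild type and of 1.42, 2.19, 1.95 and 1.46 in the KO, which overlap.

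**Figure D4:**
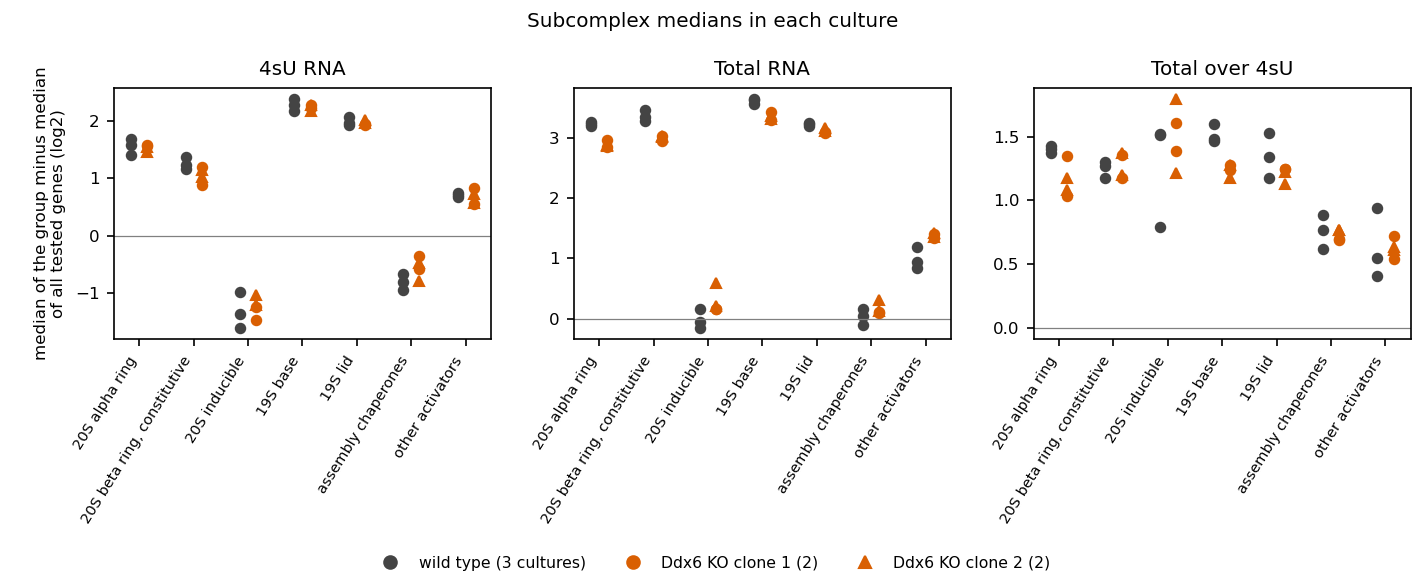
Median of each proteasome group minus the median of all tested genes in each culture, on the log2 scale, for 4sU RNA, total RNA and their ratio; points are cultures and triangles are clone 2. In total RNA the 4 KO cultures lie below the 3 wild-type cultures in both 20S rings and in the 19S base and lid.

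The 2 *Ddx6* KO clones, with 2 cultures each, were also compared with each other. No member differed between them at an adjusted p under 0.05, where 0.172% of all tested genes did in 4sU RNA, 0.296% in total RNA and 0.00689% in stability. So few of all genes were called that the lack of called members says little about the clones. By edgeR at an unadjusted p under 0.05 there were 3, 3 and 2 members, against 950, 960 and 586 of the 14518 tested genes. Each clone alone against the 3 wild-type cultures gave 32 members lower in total RNA for clone 1 and 30 for clone 2, with 3 higher for each. Among all tested genes 27.4% were lower and 17.9% higher for clone 1, and 26.9% and 17.5% for clone 2. *Psmb3*, a structural beta subunit, had the lowest adjusted p in total RNA, 0.684, with clone 2 at -0.22 relative to clone 1. For *Psmg2* clone 2 was at -0.63 ± 0.27 relative to clone 1 in stability and at 0.59 ± 0.24 in nascent RNA (adjusted p = 0.619). In clone 1 alone its stability change was -0.36 (adjusted p = 0.504).

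Partners of the proteasome that do not carry the prefix were listed separately: 26 genes for maturation, associated enzymes, shuttle factors, ubiquitin and the regulators of proteasome genes, of which 25 were tested. In total RNA 10 of them fell and 3 rose, against 31.0% and 19.5% of all tested genes. Their median log2 fold change was -0.11, close to the -0.10 of all tested genes. *Pomp*, the maturation factor that closes the core, changed by -0.40 ± 0.07, and *Uchl5*, a deubiquitinase of the base, by -0.43 ± 0.07. *Txnl1*, a thioredoxin bound to the 19S particle, changed by -0.39 ± 0.06, and *Uba1*, the ubiquitin-activating enzyme, by -0.37 ± 0.05.

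Among the shuttle factors *Ubqln1* changed by -0.26 ± 0.06 and *Ubqln4* by -0.81 ± 0.06 in total RNA. Of the ubiquitin genes *Rps27a* changed by -0.52 ± 0.17, while *Ubb* was at -0.14 ± 0.09 (adjusted p = 0.225). *Sem1* lies on chromosome 6, whose 735 tested genes had a median of 0.43 in total RNA against -0.12 elsewhere; no member lies on that chromosome. *Ecpas*, a 26S adaptor, rose by 0.30 ± 0.07.

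*Nfe2l2*, a transcription factor of the antioxidant response that can act on proteasome genes, rose by 0.31 ± 0.07 in total RNA and by 0.60 ± 0.08 in nascent RNA. *Nfe2l1*, the factor known for restoring proteasome genes when the proteasome is inhibited, was at 0.10 ± 0.06 in total RNA (adjusted p = 0.129) and rose by 0.16 ± 0.06 in nascent RNA (adjusted p = 0.0329). *Ddi2*, the protease that activates NFE2L1, was at 0.07 ± 0.07.

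In stability 9 of the 25 fell and 1 rose, against 8.58% and 3.79% of all tested genes. The 9 were *Pomp* (-0.38 ± 0.11), *Uchl5* (-0.52 ± 0.13), *Usp14* (-0.39 ± 0.10) and *Ube3c* (-0.43 ± 0.11), which act on the 26S particle or its substrates, *Ecpas* (-0.57 ± 0.13), *Txnl1* (-0.45 ± 0.10), the shuttle factors *Rad23b* (-0.35 ± 0.09) and *Ubqln1* (-0.44 ± 0.10), and *Uba1* (-0.32 ± 0.08).

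Proteasome promoters are shown as a description, and whether they bear on the changes in RNA was not tested. The RefSeq promoter table (GRCm38.p6, 250 bases before to 50 after each start) holds 41 of the 49 genes. The core of the antioxidant response element bound by NFE2L1 and NFE2L2, TGACNNNGC on either strand, was found in 6 of the 41 (14.6%), against 13.99% of the 27025 genes in the table. The CCAAT box, CCAAT on either strand, was found in 14 (34.1%), against 41.1%. The letters GCGCNNGCG on either strand, taken from the palindrome bound by the nuclear respiratory factor NRF1, were found in 9 (21.95%), against 13.49%. NRF1 here is a different factor from NFE2L1, for which the same short name is also used. In the members 0 matches of one motif overlapped a match of another. The first 3 windows hold the antioxidant core in genes named above, and the last 2 hold the letters of the NRF1 motif; capitals mark the motif, and each window is 30 bases, given along the gene's own strand.
Psmb6 (chr11:70525338-70525367, plus): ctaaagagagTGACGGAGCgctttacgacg
Psmb5 (chr14:54618023-54618052, minus): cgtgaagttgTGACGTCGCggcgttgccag
Psme4 (chr11:30771758-30771787, plus): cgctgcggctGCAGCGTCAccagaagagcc
Psma2 (chr13:14613105-14613134, plus): ggcccctcttGCGCATGCGcaagggtcaaa
Psmg1 (chr16:95990911-95990940, minus): actgcgggccggcGCGCATGCGctgtctgg

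*Psmb6*, *Psmb5* and *Psme4* all fell in total RNA, and so did *Psma2* (-0.42 ± 0.06) and *Psmg1*. Among all 45 tested members 35 fell. *Psmd9*, which also holds the antioxidant core, was at 0.08 ± 0.12 and did not pass. *Psmd14*, which also holds the NRF1 letters, was at 0.04 ± 0.06 and did not pass either. A match of letters is a description of the promoter, not a measured binding site.

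The mRNAs of these genes are short at their 3′ ends. In the transcript chosen for each gene, the 3′ UTR had a median of 213 bases over the 45 genes and 169 over the 31 constitutive subunits, against 955 over 12100 tested protein-coding genes, and 36 of the 45 were shorter than that. The shortest medians were in the base (100 bases) and the beta ring (128 bases). Among the 45 genes the 3′ UTR length and the wild-type log2 ratio of total to 4sU RNA had a Spearman rho of -0.114, and among the protein-coding genes -0.115; these are descriptions across genes measured in the same libraries. The coding part was also short, at a median of 816 bases against 1402.5.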

How the data were processed

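Per the labels and the study's methods, 4sU-labelled and total RNA of each culture were made into stranded libraries and sequenced as 50-base single-end reads, and the 4sU libraries were sequenced again paired-end. The authors trimmed with Cutadapt 1.14, aligned to mm10 with STAR 2.5.3a keeping uniquely mapped reads, and counted genes with featureCounts 1.5.3 by strand on Gencode M14; the deposited values are raw read counts per gene. The 2 runs of each 4sU library were summed. Spike-in rows held no counts.

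Counts were fitted with edgeR 4.0.16 (R 4.3.3; quasi-likelihood, robust) on 14 libraries in 4 genotype and assay groups, with TMM factors and genes of at least 3 CPM in at least 3 libraries, as in the study's filter. The contrasts were KO against wild type in 4sU RNA, in total RNA, and their difference (stability). Ratios used a pseudocount of 0.5 CPM. The fit was tested on simulated data. Gene structures, and the share of 50-base stretches found in another gene's transcript, came from Gencode M21 on the same genome (51274 genes matched by identifier). P-values measure the spread between these cultures, which for the KO come from 2 clones.

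Genes given library by library were *Psmb5* to *Psmb10* of the catalytic sites and, in each group, those with the largest change in each contrast; *Psmg1*, *Psme1* and *Psma8* were added after their values were seen, as were members given with a single value. The members, lists and tests were chosen with earlier results of these data known. The 4sU and total libraries of a culture come from the same RNA extract and are paired by design; deviations from the group means correlated at 0.00377 to 0.117 within the 7 pairs. Alternatives were DESeq2 1.42.0, limma-voom (3.58.1), other scalings and filters, each 4sU run alone, each culture left out, each clone alone, blocks, and fits without chromosome 6 and mitochondrial genes. Some genes of the lists of partners and of the interferon response are not reported here.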

Additional observations from a re-analysis of the deposited data

Results flagged for a closer look

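In groups of 4 KO cultures, 63 sets of values were examined for a culture standing apart by Dixon's ratio (the gap to the nearest other culture over the whole range, against its 95% limit), and 5 were over the limit; chance alone passes about 1 in 20. *Psmb6* in 4sU RNA had a ratio of 0.895, from clone 2 culture 2 at 128.9 CPM against 110.6 to 112.5 CPM in the other KO cultures. *Psme2* in total RNA had a ratio of 0.864, from clone 1 culture 2 at 13.2 CPM against 17.1 to 17.7 CPM. *Psmb8* in 4sU RNA had a ratio of 1.0, which rests on 2 counts in clone 2 culture 2 and none in the others. The median log2 level of the inducible and tissue-specific 20S genes in total RNA had a ratio of 0.859, from clone 2 culture 1 at 5.17 against 4.72 to 4.78 in the other KO cultures. The median log2 ratio of total to 4sU RNA of the 19S lid had a ratio of 0.88, from clone 2 culture 1 at 1.15 against 1.24 to 1.26. No member differed between the clones at an adjusted p under 0.05 in any of the 3 contrasts, where few genes of any kind did.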

How the results depend on the processing

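In total RNA the members kept their place below the median of all tested genes in each of the 20 fits. Stability did so in 21. Fits that changed only the scaling could not alter that place. The cause of the changes below was not tested beyond the smaller number of samples or reads where cultures or runs were left out. With library size alone, nascent RNA gave 16 members higher and 2 lower with a median of 0.17. Among all tested genes 36.4% were higher and 12.7% lower. Total RNA gave 6 higher, 17 lower, a median of -0.12 and 2 members past both thresholds. There 29.5% of all tested genes were higher and 19.4% lower. TMM within each assay gave a total RNA median of -0.18, 1 member past both thresholds and 4 lower in stability (against 3.97% of all tested genes). With no filter beyond 1 count the nascent median was 0.024, which is 0.021 above all tested genes, with 5 lower (against 8.41% of all tested genes). Total RNA gave a median of -0.18, 21 lower (against 10.5%) and 1 past both thresholds, with 5 lower in stability (against 2.12%). At 3 CPM in every library the total RNA median was -0.22 and 5 were lower in stability (against 7.42% of all tested genes). DESeq2 gave 3 nascent genes higher (against 17.2% of all tested genes) and 5 lower in stability (against 5.01%). With limma-voom 3 nascent genes were higher (against 18.6%). The single-end run alone gave 2 nascent genes higher and 3 lower, against 16.7% and 17.2% of all tested genes. The resequencing run alone gave 2 nascent genes higher (against 13.1%), 1 past both thresholds and 4 lower in stability (against 5.07%). Clone 1 alone gave 1 nascent gene higher (against 17.7% of all tested genes) and 5 lower in stability (against 4.95%). Clone 2 alone gave 2 members past both thresholds in total RNA. Without chromosome 6 and mitochondrial genes the nascent median was 0.00045. Leaving out each culture gave 2 to 6 higher and 5 to 8 lower in nascent RNA, 0 to 1 past both thresholds and 32 to 35 lower in total RNA, and 4 to 12 lower in stability; the nascent counts were 2 higher without wild-type culture 1, 3 higher and 5 lower without wild-type culture 2 or 3, and 3 higher without clone 2 culture 2.

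With culture as a replicate block, 14 members were lower in stability and 0 higher, against 9.74% and 4.28% of all tested genes. Only stability was fitted with this block, so it says nothing about the calls in nascent and total RNA. Between genotypes, libraries with the same replicate number in the labels had deviations that correlated at -0.058 to 0.132. Libraries of the same RNA extract, known to be paired, correlated at 0.00377 to 0.117, so these correlations cannot decide whether the number pairs cultures. As a replicate block the number gave 5 lower in nascent RNA, 1 past both thresholds in total RNA and 6 lower in stability. Among all tested genes 18.8% were lower in nascent RNA and 6.56% in stability.

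The wild-type ratio of members minus all tested genes was 0.99 against protein-coding genes, 0.95 at 3 CPM in every library, 1.36 with the single-end run and 1.13 with the resequencing run; in the KO it was 0.95 and 0.93 for the first pair. Members below about 10 CPM in 4sU libraries, such as *Psmb10* and *Psme2*, had standard errors of 0.33 and 0.32 for stability; for *Psmb10* a stability change of 0.75 did not pass (adjusted p = 0.127).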
